A study of Homo sapiens with 16 samples.

Results

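The 4 arrays described here carry the title parental in the dexamethasone (DEX) set, and the account concerns what differed between the 2 that are titled replicate 2 and the 2 that are titled replicate 1. They are 4 of the 16 arrays of the series. Each replicate number has 1 array titled DEX and 1 titled Vehicle, and both were pooled because the rule that chose the arrays set replicate 2 against replicate 1 whatever the hormone title. The rule was made with measured values in view: FOXA1 was known to be lower on replicate 2, and glucocorticoid-induced genes were known to be low on all 4 arrays. Every value of this contrast on these 4 arrays is therefore given as a description, with no test, and a gene is said to have been called there only to say that the fit gave it an adjusted p under 0.05. Tests are given for the same genes on arrays that the rule did not use. Those on the siFoxA1 titles take their error from all 8 arrays of the DEX set, the 4 chosen ones included.

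All samples were LNCaP-1F5 cells, a derivative of the LNCaP prostate cancer line that carries an introduced rat glucocorticoid receptor. Cells were kept in charcoal-stripped medium, which holds little steroid, for 3 days and then received vehicle or 100 nM hormone for 24 h before total RNA was taken. The groups used here are, in the DEX set on Illumina HumanHT-12 version 4 arrays, DEX parental, Vehicle parental, DEX siFoxA1 and Vehicle siFoxA1, with replicates 2 and 1 of each. From the dihydrotestosterone (DHT) set on version 3 arrays, replicate 1 of DHT parental, DHT siFoxA1, Vehicle parental and Vehicle siFoxA1 is used. The title siFoxA1 stands for cells given a pool of small interfering RNAs against the FOXA1 transcript. The labels name no control RNA for the parental cells. The study states biological duplicates, but nothing says that the DEX and Vehicle arrays of 1 replicate number came from separate cultures. The error terms below thus measure only the spread between the 2 hormone titles of a replicate number, which may be technical. Anything else that differed between the replicates cannot be told apart from the replicate number.

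FOXA1 is a pioneer factor of the forkhead family: it binds closed chromatin and opens it for steroid receptors and for other lineage factors. In luminal prostate cells it works beside the androgen receptor, and the loss of FOXA1 is known to redirect the binding of steroid receptors and to lower prostate secretory genes. The labelled cell type was checked on the 4 arrays. Of 9 luminal epithelial markers, 8 were detected on all 4 arrays, including KRT8, KRT18, EPCAM, CDH1 and HOXB13. Of 8 blood and endothelial markers with a probe on the array, none was detected on any of the 4. Of 3 basal markers with a probe, KRT5 and KRT14 were not detected either, and 1 was detected on at least 1 array. Of 7 mesenchymal markers, VIM and COL1A1 were detected on all 4 arrays.

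Between 15933 and 17123 of 47231 probes were detected on the 4 arrays (detection p under 0.01), and the mean raw signal was 597.4 and 651 on replicate 2, against 654.9 and 683.1 on replicate 1 (DEX and Vehicle titles in each pair). Over 10985 genes, the correlation of normalized log2 levels was 0.988 between the 2 replicate 2 arrays and 0.992 between the 2 replicate 1 arrays, against 0.957 to 0.961 between arrays of different replicate number.

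FOXA1 itself had a normalized log2 signal of 12.17 (DEX title) and 12.09 (Vehicle title) on replicate 2, against 13.37 and 13.36 on replicate 1. The difference was -1.23 ± 0.086, with 2 arrays on each side. Here and below, the SE is limma's, with the spread estimated over all 8 arrays of the set and moderated across genes. The 2 hormone titles of a replicate lay within 0.1 of each other. The siFoxA1-titled arrays held 10.84 and 10.84 on replicate 2, against 12.67 and 12.65 on replicate 1. The parental-titled arrays of replicate 2 therefore had less FOXA1 signal than the siFoxA1-titled arrays of replicate 1, which goes against the titles taken alone. The arrays are named below by the titles they carry, and no other assignment is made.

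FKBP5 separated neither by replicate number nor by hormone title on these 4 arrays. It codes for a co-chaperone of steroid receptors and is among the best known glucocorticoid and androgen target genes, and it had log2 signals of 9.39 and 9.21 on replicate 2, against 9.23 and 9.35 on replicate 1. Its 4 siFoxA1-titled arrays all lay higher, between 13.80 and 13.89. SGK1, a kinase gene induced by glucocorticoids that was chosen here after its values were seen, was at 5.27 and 5.57 on replicate 2 and 4.86 and 5.10 on replicate 1, against 14.27 to 14.59 on the siFoxA1-titled arrays. The 3 probes of NR3C1, the glucocorticoid receptor gene, were detected on 0 of the 8 arrays of the DEX set and were not tested. They are probes for the human gene, and whether they would detect the introduced rat receptor is not known here. Setting the DEX title against the Vehicle title within the parental-titled arrays called 0 of 10985 genes in limma (0%), and 71 genes had an unadjusted p under 0.05. The replicate number was not in this fit, so the difference between replicates entered its error and a call was hardly possible. With the replicate number as a block the count was again 0, with 495 genes at an unadjusted p under 0.05 where 549 are expected by chance. That glucocorticoid-induced genes are low on all 4 arrays was known when the arrays were chosen, so these counts are no independent evidence on the hormone.

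**Figure D1:**
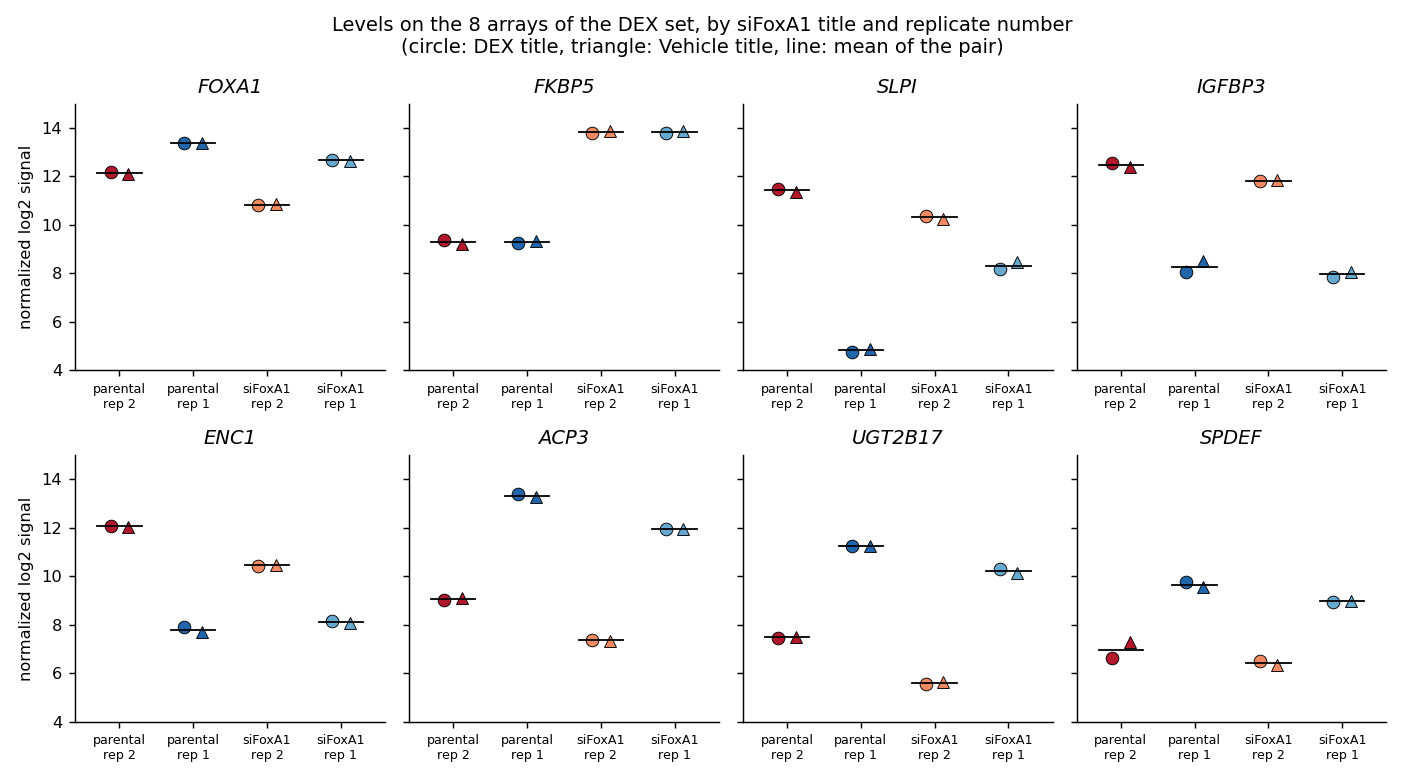
Normalized log2 signal (vertical axis) of 8 genes on the 8 arrays of the DEX set, grouped by title and replicate number; circles are DEX titles, triangles Vehicle titles, and the line is the mean of the pair. FOXA1 is lower on replicate 2 under both titles, FKBP5 separates the titles and not the replicates, and SLPI, IGFBP3 and ENC1 stand opposite to ACP3, UGT2B17 and SPDEF.

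The genes that stood lowest on replicate 2 included 3 of the UGT2B family, whose enzymes attach glucuronic acid to their substrates. They also included 2 genes of luminal prostate cells. The promoters of 4 of all these genes are printed because they hold short forkhead motifs. Each sequence is the 250 bases before the gene's start in RefSeq (GRCh38.p14), read 5′ to 3′ on the gene's strand, and capitals mark a match on either strand to the motif TGTTTAC, the motif TATTTAC or the motif TGTTTGC, which do not overlap one another here.
UGT2B15, chr4:68670653-68670902, minus strand: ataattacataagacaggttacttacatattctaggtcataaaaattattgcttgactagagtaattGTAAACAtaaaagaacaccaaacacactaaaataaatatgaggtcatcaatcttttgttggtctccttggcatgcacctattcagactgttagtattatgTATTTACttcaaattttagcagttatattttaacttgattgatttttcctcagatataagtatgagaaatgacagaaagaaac
UGT2B11, chr4:69214749-69214998, minus strand: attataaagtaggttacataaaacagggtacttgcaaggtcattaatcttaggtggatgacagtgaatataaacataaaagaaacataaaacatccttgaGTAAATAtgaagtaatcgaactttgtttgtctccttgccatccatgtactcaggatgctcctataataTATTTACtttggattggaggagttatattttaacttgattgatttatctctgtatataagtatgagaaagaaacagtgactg
ACP3, chr3:132317157-132317406, plus strand: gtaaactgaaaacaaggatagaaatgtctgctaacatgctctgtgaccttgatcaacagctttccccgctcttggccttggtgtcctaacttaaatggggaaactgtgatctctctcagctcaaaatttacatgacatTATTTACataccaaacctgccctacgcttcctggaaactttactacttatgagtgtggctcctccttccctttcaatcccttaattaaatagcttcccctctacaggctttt
SPDEF, chr6:34556330-34556579, minus strand: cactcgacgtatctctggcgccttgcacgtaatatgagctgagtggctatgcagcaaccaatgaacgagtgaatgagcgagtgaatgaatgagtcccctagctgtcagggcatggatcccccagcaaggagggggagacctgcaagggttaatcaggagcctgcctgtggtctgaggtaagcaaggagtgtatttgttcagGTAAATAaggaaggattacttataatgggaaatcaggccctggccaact
In UGT2B15 the matches begin 183 and 83 bases before the start, in UGT2B11 150 and 82 bases before it, in ACP3 112 and in SPDEF 49 bases before it. Of the 15 genes with the largest differences downwards, 14 had a promoter in the table and 5 of these (35.7%) held at least 1 match, the other being GCG. Among the 15 largest upwards it was 1 of 13 (7.69%, GLYATL2). The share was 8.29% over all 27303 promoters of the table, 5.12% over the genes tested that had one, 6.72% over those called higher and 6.01% over those called lower. Base composition moved with these shares: the median GC content was 42.4% in the 14 promoters, 57.2% in the 13 and 65.2% over all genes tested, and its part in the difference was not tested. A match describes the letters and not a site that a protein occupies.

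Across the whole array, replicate 2 and replicate 1 of the parental titles differed widely. The fit called 2822 of 10985 genes (25.7%), with 1320 higher on replicate 2 (12%) and 1502 lower (13.7%). The 2 sides did not overlap for 6577 genes (59.9%), which is the background for every non-overlap given below. The median difference over all genes was -0.01, the median standard error 0.16, and the 5th and the 95th percentiles were -0.92 and 0.80. Fitted differences beyond 2 on the log2 scale were found for 96 genes upwards and 47 downwards, undetected sides included. Of the called genes, 131 were undetected on both replicate 2 arrays and 123 on both replicate 1 arrays. Where a gene was undetected on both arrays of 1 side, its ratio is given as a lower bound set by the dimmest detected probes of that side.

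The largest differences upwards were those of SLPI and SCGN, both undetected on replicate 1. SLPI, which codes for a protease inhibitor of mucosal secretions, had log2 signals of 11.47 and 11.38 on replicate 2, against 4.77 and 4.89 on replicate 1, where it was undetected. It was at least 55.8-fold higher on replicate 2. SCGN, a calcium-binding protein of neuroendocrine and secretory cells, was at 9.46 and 9.87 on replicate 2, against 4.66 and 4.51 on replicate 1, and was at least 16.5-fold higher. Both genes were detected on the 2 replicate 2 arrays and on neither replicate 1 array. IGFBP3, the main carrier of insulin-like growth factors in blood, had 12.57 and 12.38 on replicate 2, against 8.04 and 8.49 on replicate 1, a difference of 4.21 ± 0.14 (SE). THBS1, which codes for the matrix protein thrombospondin, had 9.56 and 9.24 on replicate 2, against 5.35 and 5.43 on replicate 1, and was at least 13.7-fold higher. The sphingosine phosphate receptor S1PR3 had 12.45 and 12.29 on replicate 2, against 8.78 and 8.82 on replicate 1. The DEX and Vehicle arrays of a replicate stayed within 0.5 of each other in all of these genes, which were chosen for a large gap between replicates without overlap.

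Among intracellular proteins, ENC1, an actin-associated protein of the Kelch family, had 12.09 and 12.02 on replicate 2, against 7.90 and 7.70 on replicate 1 (difference 4.25 ± 0.12). NFKBIZ, a nuclear regulator of NF-kappaB target genes, was higher by 3.57 and the homeobox factor HLX by 3.18. The rest of the 15 largest were TLL2 (4.36, detected on 1 of the 2 replicate 1 arrays), a protease of the BMP1 family, the membrane protein TMEM158 (3.88), the adhesion receptor ADGRL2 (3.29), the fractalkine receptor CX3CR1 (at least 6.71-fold), the lipogenic factor THRSP (at least 6.67-fold), the acyltransferase GLYATL2 (at least 10.4-fold) and the long noncoding RNA LINC00930 (at least 12.8-fold). HLX was the last inside the limit of 15 genes, and SEMA3C, with 3.11, the first outside it.

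The largest differences downwards were those of ACP3 and DDC. ACP3, which codes for prostatic acid phosphatase, had log2 signals of 9.02 and 9.12 on replicate 2, against 13.40 and 13.25 on replicate 1, a difference of -4.26 ± 0.11 (SE). DDC, the decarboxylase that makes dopamine and serotonin, had 8.23 and 8.34 on replicate 2, against 12.33 and 12.45 on replicate 1. SPON2, a secreted matrix protein, had 5.51 and 5.55 on replicate 2, where it was undetected, against 9.10 and 8.68 on replicate 1, and was at least 8.82-fold lower. All 3 lay lower on both hormone titles of replicate 2 than on either array of replicate 1. SPDEF, an ETS factor of luminal secretory cells, had 6.63 and 7.27 on replicate 2, against 9.75 and 9.55 on replicate 1. The proglucagon gene GCG was undetected on replicate 2, at 5.28 and 5.05, against 8.86 and 8.95 on replicate 1, and was at least 8.94-fold lower.

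UGT2B15 and UGT2B17 code for enzymes that inactivate dihydrotestosterone and related steroids, and UGT2B11 belongs to the same gene family. UGT2B17 had 7.46 and 7.51 on replicate 2, against 11.24 and 11.24 on replicate 1, a difference of -3.76 ± 0.14 (SE), with its 3 probes of 1 sign. UGT2B15 had 5.85 and 4.91 on replicate 2, against 8.43 and 8.71 on replicate 1, and UGT2B11 had 5.69 and 5.75 on replicate 2, against 8.59 and 8.94 on replicate 1. UGT2B15 and UGT2B11 were each detected on only 1 of the 2 replicate 2 arrays. All 3 genes lay lower on both replicate 2 arrays than on either replicate 1 array, as the rule for the 15 genes required. Genes of this family are alike in sequence and the probes were not aligned here, so how much of each signal belongs to which of them is uncertain. The others of the 15 were CPNE4 (at least 6.74-fold lower), TGM3 (-3.59), GASK1B (-3.41), LRRC31 (at least 3.51-fold lower), KCNK5 (at least 4.74-fold lower), PRUNE2 (-2.84) and AMHR2 (-2.63, detected on 1 of the 2 replicate 2 arrays), the receptor of anti-Müllerian hormone. AMHR2 was the last inside the limit, and MAST4, with -2.62, the first outside it.

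The same genes were then tested on the 4 siFoxA1-titled arrays of the DEX set, replicate 2 minus replicate 1, which share the chip, the cell line and the normalization with the parental-titled arrays but are other arrays. The error of the fit is also shared. Genes named by their calls or statistics on the parental titles tend to have a small error, so the adjusted p-values may be too low. Fitted on the 4 siFoxA1-titled arrays alone, the 30 genes of largest difference kept their direction and their call. On them 2733 of 10985 genes were called (24.9%), 11.6% higher and 13.3% lower. Of the 15 genes at the upper end, 15 rose on replicate 2 there (limma, adjusted p at most 0.000256). The rise was 1.99 to 3.87 on the log2 scale in the 10 that were detected on both sides, and the other 5, undetected on replicate 1, were at least 1.77-fold (CX3CR1) to at least 9.66-fold (SCGN) higher. Of the 15 at the lower end, 15 fell (limma, adjusted p at most 0.000166). The difference was -4.63 to -1.19 in the 8 detected on both sides, and the other 7, undetected on replicate 2, were at least 1.52-fold (LRRC31) to at least 6.49-fold (GCG) lower. IGFBP3 rose by 3.87 (adjusted p = 1.6e-13) and TMEM158 by 3.56 (adjusted p = 1.8e-14), close to their parental differences. ACP3 had a difference of -4.57 there (adjusted p = 3e-16) and UGT2B17 one of -4.63 (adjusted p = 1.8e-14).

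Of all 2822 genes called on the parental titles, 1459 were called in the same direction on the siFoxA1 titles, 70 in the opposite one and 1293 in neither. That is 51.7% of the parental list and 53.4% of the list called on the siFoxA1 titles. By direction it was 611 of the 1320 higher genes (46.3%) and 848 of the 1502 lower ones (56.5%). Across genes the 2 differences had a Pearson correlation of 0.65 and a Spearman correlation of 0.538, given as a description since genes are not independent and all 8 arrays were normalized together.

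**Figure D2:**
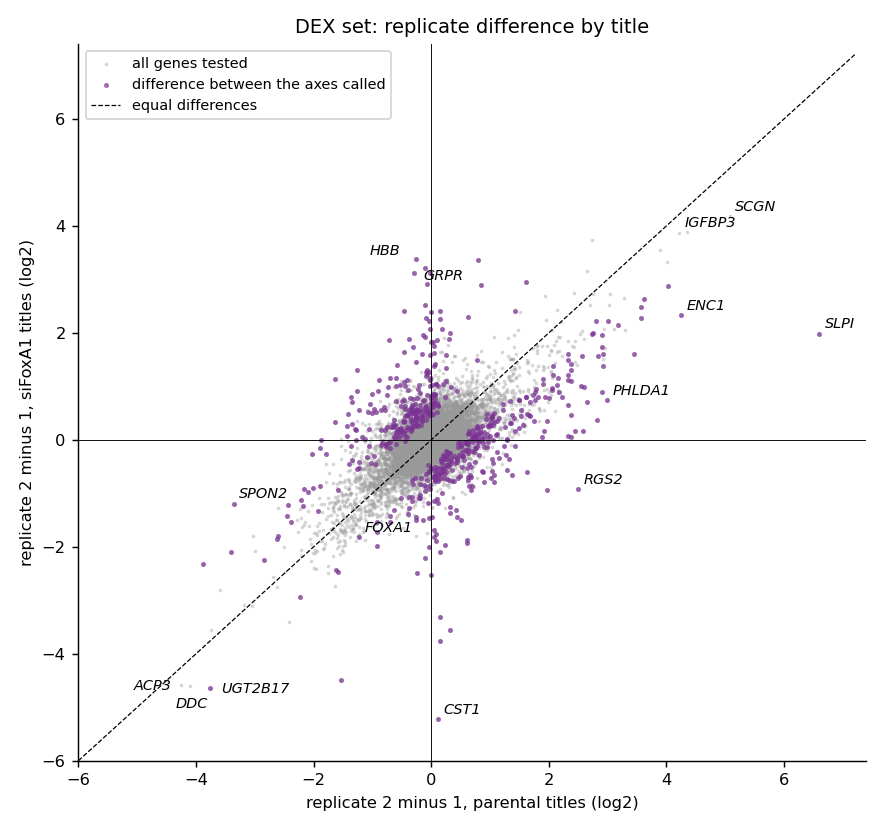
Replicate 2 minus replicate 1 on the log2 scale for 10985 genes, on parental titles (horizontal axis) and siFoxA1 titles (vertical axis); purple points are the 588 genes whose interaction the fit called, and the dashed line marks equal differences; values are fitted also where a gene was undetected on 1 side. SCGN, IGFBP3, ACP3 and DDC lie near the line, SLPI and RGS2 lie below it on the right, and CST1, HBB and GRPR lie near 0 on the parental titles, where they were undetected.

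The replicate differences under the 2 titles were also set against each other. The interaction includes the contrast that chose the arrays, and genes named for a large parental difference tend to be larger there by that choice, so it is given as a description and no p is read for a gene. The fit called 588 interactions (5.35% of 10985, adjusted p under 0.05). In 124 of them both differences were called in 1 direction, with the larger fitted difference on the parental titles in 98 and on the siFoxA1 titles in 26. In 70 the directions were opposite, in 172 only the parental difference was called, in 216 only that of the siFoxA1 titles, and in 6 neither. SLPI differed in which arrays detected it: on the siFoxA1 titles it was detected on replicate 1 too, at 8.16 and 8.48, and rose by 1.99 there (adjusted p = 7.6e-09). The difference of ENC1 was 4.25 on parental titles and 2.33 on siFoxA1 titles, and that of S1PR3 was 3.57 and 2.49. SPON2, undetected on replicate 2 of the parental titles, was detected on all 4 siFoxA1-titled arrays and fell by 1.19 there (adjusted p = 8.3e-05). FOXA1 had -1.23 on parental titles and -1.82 on siFoxA1 titles.

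RGS2, which codes for a regulator of G protein signalling that glucocorticoids can induce, had opposite signs under the 2 titles. It had 8.67 and 8.99 on replicate 2 of the parental titles, against 6.46 and 6.21 on replicate 1. On siFoxA1 titles it fell on replicate 2, with a difference of -0.93 (adjusted p = 0.0015). The smooth muscle actin gene ACTA2 had the same form, with 1.01 on parental titles and a fall of 0.71 on siFoxA1 titles (adjusted p = 0.00059).

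The second group of other arrays was replicate 1 of the DHT set, DHT minus Vehicle title, parental and siFoxA1 titles pooled. FOXA1 was known to be lower on its DHT-titled side, and several of the genes named here were known to differ there, so these values stand beside the others and are not independent support. FOXA1 had 12.24 and 12.28 on the DHT titles, against 13.54 and 13.57 on the Vehicle titles. In that set 1572 of 9020 genes were called (17.4%), 8.43% higher and 9% lower. Of the 14 genes of the upper end that were measured, 14 were called higher, and of the 15 at the lower end 14 were called lower. Of the 14 measured at the upper end, 8 were undetected on the Vehicle titles, and the other 6 were higher by 2.64 to 5.13. Of the 15 at the lower end, 5 were undetected on the DHT titles, and the other 10 had differences of -3.33 to -0.58. LRRC31 was the exception, with -0.58 (adjusted p = 0.15). SLPI had 11.65 and 11.70 on the DHT titles, against 5.20 and 5.71 on the Vehicle titles, where it was undetected.

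**Figure D3:**
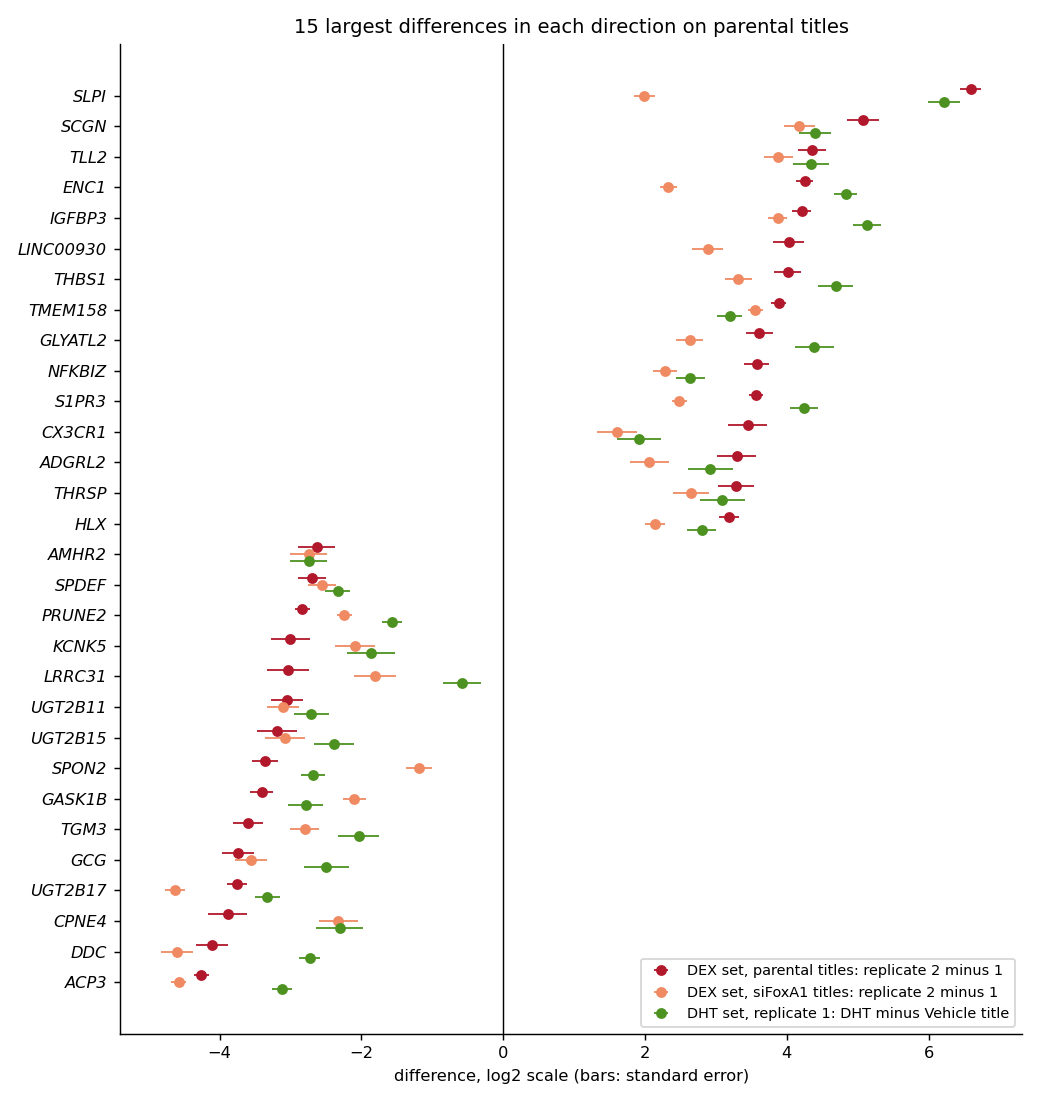
Log2 differences (horizontal axis, bars are standard errors) of the 15 genes with the largest called differences in each direction on the parental titles, in 3 contrasts: replicate 2 minus 1 on parental titles, the same on siFoxA1 titles, and DHT minus Vehicle title in replicate 1 of the DHT set. The measured contrasts of each gene lie on 1 side of 0 (LINC00930 was not measured in the DHT set), and LRRC31 is close to 0 in the DHT set. Points are fitted values also where 1 side was undetected, as for SLPI and SCGN, and show no exact ratio there.

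Of the 2499 parental-called genes that were measured in the DHT set, 1069 were called in the same direction there, 17 in the opposite one and 1413 in neither. That is 42.8% of the parental list and 68.9% of the 1552 genes called in the DHT set and measured in both. Across 8787 genes the 2 differences had a Pearson correlation of 0.773 and a Spearman correlation of 0.619. Called in 1 direction in all 3 contrasts were 745 genes, 293 higher and 452 lower.

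Cell cycle genes formed the most one-sided group on replicate 2. Over all genes tested, 12% were called higher and 13.7% lower, which is the background for the parental counts of every list below. Of 55 measured members of 57 in a list for the G2/M phases, 51 were called lower and 1 higher, with a median of -1.46 against -0.01 over all genes. PRC1, which bundles the microtubules of the spindle midzone, had 9.42 and 9.31 on replicate 2, against 10.85 and 10.87 on replicate 1. UBE2C, the ubiquitin-conjugating enzyme of the anaphase-promoting complex, had 9.24 and 9.58 on replicate 2, against 11.05 and 10.99 on replicate 1. The 1 member in the other direction was CKS2, a small subunit of cyclin-dependent kinases, with 13.77 and 13.94 on replicate 2, against 12.54 and 12.27 on replicate 1. On the siFoxA1 titles 50 members fell and 1 rose (median -1.49), and in the DHT set 39 of 50 measured were called lower and 1 higher (median -1.11). CKS2 rose in both, by 1.61 (adjusted p = 4e-10) and 1.87 (adjusted p = 3e-10).

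Of 41 measured members of 45 in the list for the G1/S transition, 33 were called lower and 1 higher, with a median of -0.91. TK1 and TYMS make the thymidine nucleotides of DNA, and CDC45 is a part of the replicative helicase. TK1 had 8.98 and 9.12 on replicate 2, against 11.12 and 10.74 on replicate 1, and CDC45 had 7.41 and 7.26 on replicate 2, against 9.47 and 9.29 on replicate 1. On the siFoxA1 titles 30 members fell and 1 rose (median -0.85). TK1 fell by 0.86 there (adjusted p = 0.00012). The 1 member called higher, CCND1, codes for cyclin D1 and was named after its values were seen. In bulk RNA, fewer cycling cells and less of these transcripts per cell cannot be told apart.

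Inhibitors of cyclin-dependent kinases lay the other way in part, with 3 of 7 called higher, 1 lower and a median of 0.31. CDKN1A, the p21 gene, had 13.77 and 13.75 on replicate 2, against 12.17 and 11.80 on replicate 1, and it rose by 0.96 on the siFoxA1 titles (adjusted p = 1.3e-06). CDKN1C, the p57 gene, had 8.32 and 8.30 on replicate 2, against 6.90 and 7.19 on replicate 1. On the siFoxA1 titles its difference was -0.28 (adjusted p = 0.16). CDKN3, a phosphatase that peaks in mitosis and is listed with the inhibitors, was lower by 0.96. Of 24 p53 target genes, 4 were called higher and 1 lower (median 0.14), against 12% and 13.7% of all genes. Besides CDKN1A, the growth arrest gene GADD45A was higher by 1.56 and the ribonucleotide reductase subunit RRM2B by 0.93.

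**Figure D4:**
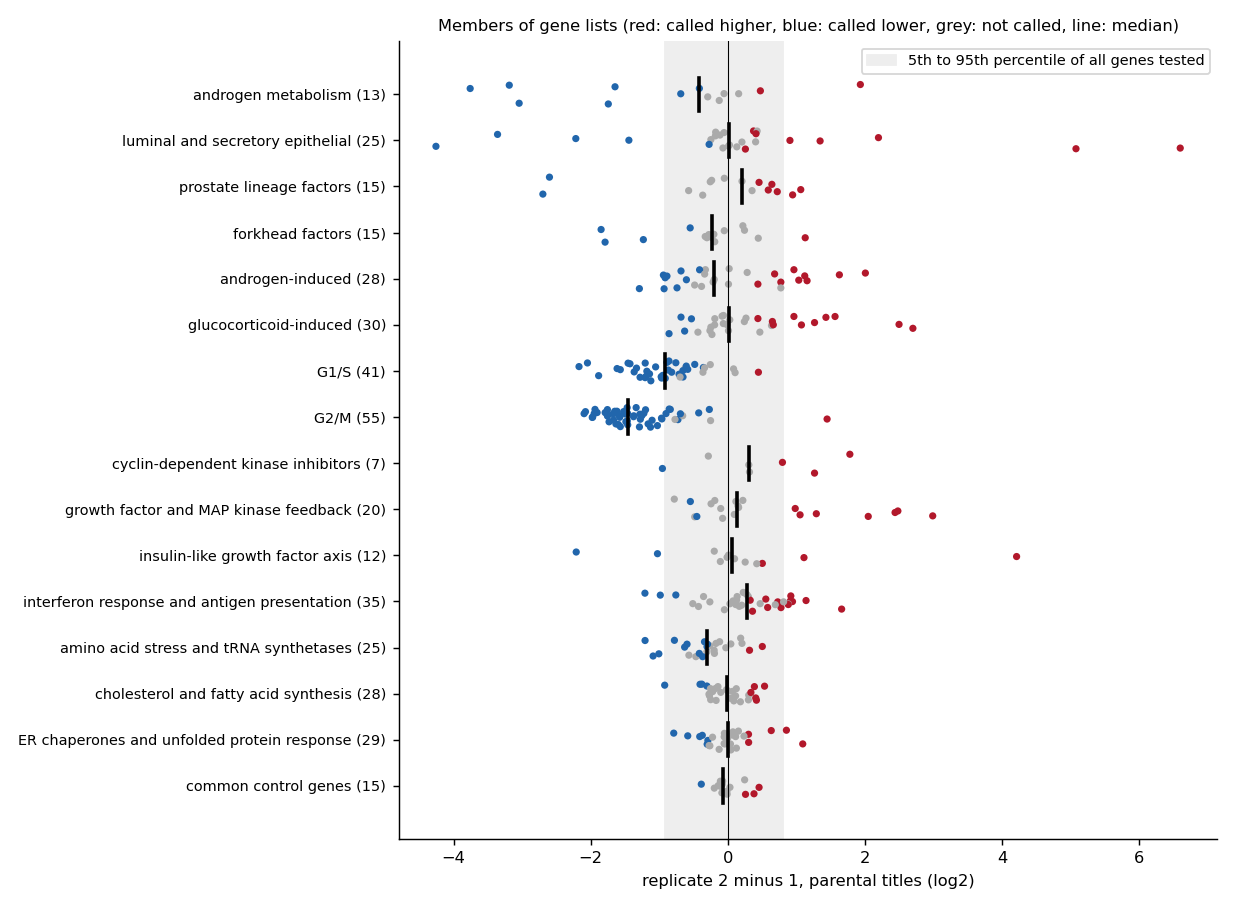
Replicate 2 minus replicate 1 on the parental titles (horizontal axis, log2) for each measured member of 16 gene lists, with the number of members in brackets; red and blue points were called higher and lower, the black line is the list's median and the grey band runs from the 5th to the 95th percentile of all genes tested. The G1/S and G2/M lists lie left of 0 nearly as a whole, and the luminal and androgen metabolism lists spread furthest to both sides or to the left.

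Genes of prostate identity did not move as a block. Of 15 measured prostate lineage factors, 6 were called higher and 2 lower (median 0.21). The 2 were SPDEF and HES6, a Notch pathway repressor, which had 8.76 and 8.66 on replicate 2, against 11.27 and 11.35 on replicate 1 and fell by 1.81 on the siFoxA1 titles (adjusted p = 1.4e-09). NFIB, a nuclear factor I protein that binds FOXA1, was higher by 1.06 and rose by 0.60 on the siFoxA1 titles (adjusted p = 0.00012). Of 15 forkhead genes, 1 was called higher and 4 lower (median -0.23). FOXM1, the forkhead factor of the mitotic genes, was lower by 1.85 and FOXN3 higher by 1.13, and the siFoxA1 titles had -1.68 (adjusted p = 5.2e-06) and 0.90 (adjusted p = 7.2e-05).

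Of 25 luminal and secretory epithelial genes, 8 were called higher and 5 lower, with a median of 0.02 and fitted differences from -4.26 (ACP3) to 6.60 (SLPI, undetected on replicate 1). KRT8 and KRT19, luminal keratins chosen here after their values were seen, were among the 8. KRT8 had 11.47 and 11.54 on replicate 2, against 10.65 and 10.55 on replicate 1, and KRT19 had 7.53 and 8.14 on replicate 2, against 5.55 and 5.72 on replicate 1, where 1 of the 2 arrays detected it. Both rose on the siFoxA1 titles, by 0.51 (adjusted p = 0.00034) and 1.92 (adjusted p = 7.4e-06). The secretory products thus lay on both sides, and these 2 keratins on the higher one. Of 22 basal epithelial genes in the list 6 were measured, and 3 of these were called higher (median 1.08). The 3 were ITGA6, LAMB3 and JAG1, all undetected on replicate 1 of the parental titles. ITGA6 and LAMB3 were kept only because replicate 2 arrays detected them, so the count and the median depend on that filter. Of 13 mesenchymal genes 7 were called higher and 2 lower (median 0.53). The integrin gene ITGA6 had 6.70 and 6.46 on replicate 2, against 4.97 and 4.90 on replicate 1, where it was undetected. The epithelial transition factor SNAI2 had 6.97 and 6.86 on replicate 2, against 5.41 and 5.44 on replicate 1, where it was undetected, with another probe of the other sign. On the siFoxA1 titles ITGA6 was at least 1.97-fold higher (limma, adjusted p = 0.001), and the difference of SNAI2 was 0.22 (limma, adjusted p = 0.35). LAMB3 and JAG1 were not called there (limma, adjusted p = 0.15 and 0.27). Of the 6 basal genes 2 were called higher on the siFoxA1 titles and 0 lower, and of 2 measured in the DHT set 0 were called. Of 7 mesenchymal markers checked for cell type, VIM and COL1A1 were detected on all 4 arrays. CDH2, COL1A2, COL3A1 and SPARC were undetected on all 4.

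Genes that steroid receptors regulate were mixed in direction. Of 28 measured androgen-induced genes, 9 were called higher and 9 lower (median -0.21). TMPRSS2, a surface protease, had 11.48 and 11.56 on replicate 2, against 12.37 and 12.50 on replicate 1, and the metalloreductase STEAP2 had 10.70 and 10.18 on replicate 2, against 11.74 and 11.72 on replicate 1. Both fell on the siFoxA1 titles, with -1.54 (adjusted p = 5.2e-10) and -1.53 (adjusted p = 2.5e-08). The kallikrein protease KLK2, chosen after its values were seen, went the other way, with 8.07 and 8.24 on replicate 2, against 6.24 and 6.07 on replicate 1, and it rose by 0.78 on the siFoxA1 titles (adjusted p = 0.0099). TSC22D1 was higher by 1.62. Of 17 androgen-repressed genes, 5 were called higher and 7 lower (median -0.18). UGT2B17 and DDC were among the 7, and BCHE, which codes for butyrylcholinesterase, was higher by 2.12 and rose by 1.86 on the siFoxA1 titles (adjusted p = 3.7e-10).

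Of 30 measured glucocorticoid-induced genes, 10 were called higher and 4 lower on replicate 2 (median 0.02), and 7 of the 30 were undetected on all 4 parental-titled arrays. Besides RGS2, the 2 members with the largest statistics were LCN2, the iron-binding lipocalin, and GADD45A. LCN2 had 7.98 and 8.28 on replicate 2, against 5.80 and 5.07 on replicate 1, and on the siFoxA1 titles, where replicate 1 was undetected, it was at least 4.82-fold higher (adjusted p = 5.2e-07). Of 14 steroid receptor and chaperone genes, 0 were called higher and 2 lower (median -0.03), with the coactivator NCOA1 at -0.44. Of 13 androgen metabolism genes, 2 were called higher and 7 lower (median -0.42), with the 3 UGT2B genes above at the lower end.

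Growth factor signalling held large differences in a few members. Of 20 measured feedback genes of growth factor and MAP kinase signalling, 7 were called higher and 2 lower (median 0.13). PHLDA1, a pleckstrin homology protein, had 9.21 and 9.22 on replicate 2, against 6.37 and 6.09 on replicate 1. It rose by 0.74 on the siFoxA1 titles (adjusted p = 0.00042). The MAP kinase phosphatase DUSP10 was higher by 2.44 and rose by 1.46 on the siFoxA1 titles (adjusted p = 0.00021). The ETS factor ETV5, undetected on replicate 1 under both titles, was at least 3.42-fold higher on the parental titles and at least 1.92-fold higher on the siFoxA1 titles (adjusted p = 0.0012). Of 12 genes of the insulin-like growth factor axis, 3 were called higher and 2 lower (median 0.05). Beside IGFBP3, the receptor adaptor GRB10 had 10.47 and 10.55 on replicate 2, against 12.81 and 12.63 on replicate 1, and the clearance receptor IGF2R was lower by 1.03.

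Interferon and antigen presentation genes leaned upwards on the parental titles, with 12 of 35 called higher, 3 lower and a median of 0.28. On the siFoxA1 titles 7 rose and 4 fell (median 0.21), where 11.6% of all genes were called higher and 13.3% lower. IFI6 had 12.60 and 12.74 on replicate 2, against 11.99 and 11.81 on replicate 1, and it rose by 0.98 on the siFoxA1 titles (adjusted p = 2e-07). The peptide transporter subunit TAP1 was higher by 0.73, and its difference on the siFoxA1 titles was 0.07 (adjusted p = 0.69). The transcription factor IRF7 was higher by 0.88.

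Amino acid stress genes and tRNA synthetases had different directions in the 2 sets. On the parental titles of the DEX set, 2 of 25 were called higher and 11 lower (median -0.30), and on the siFoxA1 titles 2 rose and 10 fell (median -0.29). In the DHT set 14 of the same 25 were called higher and 0 lower (median 0.46). PSAT1, an enzyme of serine synthesis, had 9.94 and 9.75 on replicate 2, against 11.00 and 10.87 on replicate 1, and fell by 1.01 on the siFoxA1 titles (adjusted p = 2.4e-06). In the DHT set PSAT1 was higher by 0.46 on the DHT titles (adjusted p = 0.016). PHGDH, the first enzyme of that pathway, was lower by 1.01, and the glutamine transporter SLC1A5 by 1.21. The sets were normalized separately, and the difference between them was not tested.

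**Figure D5:**
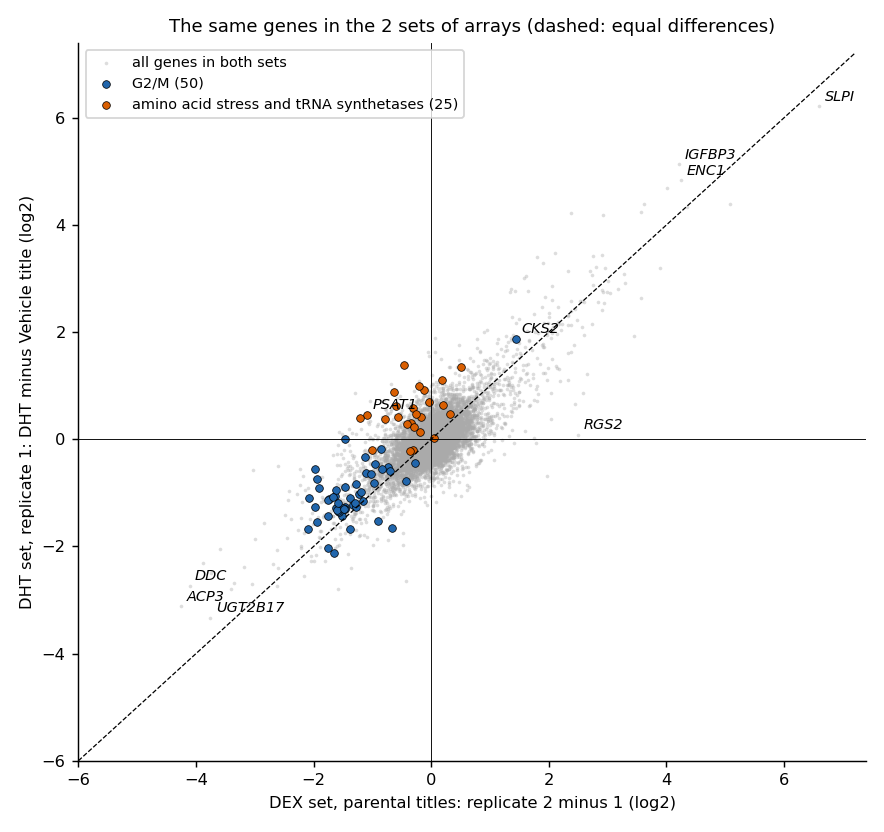
Log2 difference of replicate 2 minus 1 on the parental titles of the DEX set (horizontal axis) against DHT minus Vehicle title in replicate 1 of the DHT set (vertical axis) for 8787 genes. The 50 G2/M genes lie mostly lower left, with CKS2 at upper right, while most of the 25 amino acid and tRNA synthetase genes lie above 0 in the DHT set and below 0 in the DEX set.

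Metabolic groups had medians close to that of all genes, and their counts stand beside shares of 12% called higher and 13.7% called lower over all genes. Of 28 cholesterol and fatty acid synthesis genes, 5 were called higher and 4 lower (median -0.01). ACACA, the acetyl-CoA carboxylase of fatty acid synthesis, was lower by 0.92, and fell by 0.57 on the siFoxA1 titles (adjusted p = 0.00016). Of 29 endoplasmic reticulum chaperone and unfolded protein response genes, 5 were called higher and 6 lower (median 0.00), with the co-chaperone DNAJB9 higher by 1.09. The difference of DNAJB9 on the siFoxA1 titles was 0.37 (limma, adjusted p = 0.073). Of 21 glycolysis genes 2 were called higher and 3 lower (median 0.01), with the enolase ENO1 lower by 0.59. Of 16 hypoxia genes 2 were called higher and 5 lower (median -0.06). P4HA2, a collagen prolyl hydroxylase subunit, had 6.33 and 6.77 on replicate 2, against 9.02 and 8.95 on replicate 1. It fell by 1.22 on the siFoxA1 titles (adjusted p = 4.5e-05).

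Of 16 polyamine genes 5 were called higher and 4 lower (median -0.01), with the acetyltransferase SAT1 higher by 0.73. The difference of SAT1 on the siFoxA1 titles was 0.05 (limma, adjusted p = 0.76). Of 6 metallothioneins 1 was called higher and 1 lower (median 0.21), and MT2A was higher by 0.66. Of 12 neuroendocrine and neuronal genes 4 were called higher and 3 lower (median 0.21), with ENC1 and DDC at the 2 ends. Of 20 blood and endothelial genes in the list 3 were kept, and 1 was called higher (median 0.29). The other 2, HBB and HBA2, were undetected on all 4 parental-titled arrays and were kept only through siFoxA1-titled arrays. The median is the background value of HBA2, which had another probe of the other sign. The 1 called was CD68, a lysosomal protein of macrophages that other cells also make. It had 9.26 and 9.11 on replicate 2, against 6.97 and 7.25 on replicate 1. Of 15 common control genes 3 were called higher and 1 lower (median -0.08), with a range from -0.39 to 0.45. The actin gene ACTB had 14.65 and 14.43 on replicate 2, against 14.21 and 14.36 on replicate 1.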

How the data were processed

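RNA of LNCaP-1F5 cells had been hybridized to Illumina arrays, 8 per set. Per the file headers, the deposited scanner tables give 1 averaged bead intensity per probe and array, before any background removal, with a detection p-value next to it. The submitters' processing notes name BeadStudio. Scanner columns were assigned by the array position in the labels. Scanner rows (by address) were joined to probe identifiers through the authors' value table by their ranks on 8 arrays: 47231 of 47231 rows in the DEX set and 48794 of 48794 in the DHT set, with 9 scanner rows left over. Symbols came from the platform annotation (1 symbol for 30113 and 28090 probes, several for 8 and 13, none for 17110 and 20691), and the RefSeq gene table replaced 0 of them.

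Signals were background-corrected (normexp with an offset of 16, the level of the negative controls being estimated through the detection p-values). Quantile normalization across the arrays of each set and the log2 step followed (limma 3.58.1, R 4.3.3). A probe had to be detected (p under 0.01) on 2 or more of 8 arrays, and the brightest probe stood for a gene. Means of title by replicate number (2 arrays each) were fitted over the 8 arrays of a set with an intensity trend, two-sided, with Benjamini-Hochberg adjustment over all genes. The DEX against Vehicle comparison used the 4 labelled groups, with the replicate block as an alternative. The fits were tested on simulated data. Some genes are not reported here.

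The members, gene lists, tests and alternatives were chosen with earlier results of these data known. Named genes are FOXA1, NR3C1 and FKBP5, the 15 largest called differences without overlap in each direction, 3 members per list by the largest moderated statistic, and the 5 largest called interactions in each direction; others are marked in the text. Same-numbered arrays lay together, as the correlations in the report show, but where a number comes from is not stated.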

Additional observations from a re-analysis of the deposited data

Results flagged for a closer look

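The fit called 588 genes whose replicate difference was not equal under the 2 titles, in a comparison that includes the contrast the arrays were chosen by. The 10 largest are given as the parental difference minus the siFoxA1 difference, each replicate 2 minus 1 on the log2 scale, and 9 of the 10 were undetected on all 4 parental-titled arrays, so that their value is a fitted one against background and no exact ratio. The exception is SLPI, with 4.61, which was undetected on replicate 1 of the parental titles. CST1, a salivary cystatin, had 5.33: on siFoxA1 titles it was at 7.13 and 6.82 on replicate 2, against 12.24 and 12.15 on replicate 1. The hair follicle keratins KRT73 and KRT72 had 3.91 and 3.86, and the arginase gene ARG1 had 3.46. In the other direction SBSPON had -2.98, the retinal gene RP1L1 -3.13, the placental growth factor PGF -3.32, the bombesin receptor GRPR -3.41 and the globin gene HBB -3.63. HBB was at 8.78 and 8.84 on replicate 2 of the siFoxA1 titles, against 5.27 and 5.58 on replicate 1.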

How the results depend on the processing

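The number of genes called on the parental titles lay between 1758 and 2623 when 1 array was left out, against 2822 with all, and was 1758 without DEX parental replicate 1. On the siFoxA1 titles it lay between 1681 and 2031, against 2733: it was 1739 without Vehicle replicate 1, 1781 without Vehicle replicate 2 and 1681 without DEX replicate 1. The 588 interactions became 249 without the intensity trend and 337 to 704 with 1 array left out (354 without DEX parental replicate 1, and on the siFoxA1 titles 358 without Vehicle replicate 1, 356 without Vehicle replicate 2 and 337 without DEX replicate 1). In the DHT set the count of 1572 became 1039 to 1208, the lowest without Vehicle parental replicate 1. Leaving out an array leaves 1 side with 1 array, whose spread is assumed to equal that of the others. The count of DEX against Vehicle calls was 0 in every alternative that was run, the replicate block included (0). In all of them but the block, the replicate difference entered the error, so that a call was hardly possible. For SLPI the standard error was 2.56, against 0.16 with the block. Background correction, scaling, the authors' values, the filter on dim probes and the probe rule each kept these counts within 1.5 times, and so did an added alternative, chosen after seeing the data, that required detection on at least 2 of the 4 parental-titled arrays (2849, 2635, 542 and 0 genes). The other results were counts by direction, single genes and list medians. Over these and all alternatives, 4521 values kept their side of the threshold or stayed close, 129 moved, 115 no longer passed the threshold and 7 newly passed it. Of single genes called in the main fit or the alternative, 0 reversed. A gene called in neither was counted as kept whatever its sign, and list medians were judged only by the size of their shift. List medians crossed 0 under some alternative for the androgen-repressed (-0.32 to 0.22), prostate lineage (-0.05 to 0.30) and basal epithelial genes (-0.30 to 1.42), among others near 0. The number of arrays limits the precision.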
